A study of Mus musculus with 6 samples.

Results

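The heat shock and chaperone genes described here are 9 of the 20234 genes in a table of single-cell RNA counts from the mouse CA1, a field of the hippocampus. They were chosen by name: Hspa1a, Hspa1b, Dnajb1, Hsph1 and Hsp90aa1, which are known as heat-inducible, Hspa8, Hsp90ab1 and Dnaja1, which are known as constitutive, and Hspa5, which serves the endoplasmic reticulum. The cells came from 6 male C57Bl6 mice at postnatal day 28. A single injection of recombinant human erythropoietin (EPO, 5000 IU/kg) was given to mice 2, 4 and 6 and a single injection of placebo to mice 1, 3 and 5, and all were killed 6 h later. The mice were wild type, the CA1 tissue of every mouse was digested with papain at 37°C before capture, and each mouse gave 1 Drop-seq library. Drop-seq isolates single cells in droplets with barcoded beads and counts each captured mRNA molecule once by its unique molecular identifier (UMI).

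Chaperones bind unfolded or partly folded proteins and release them in a cycle that spends ATP. HSP70 proteins (Hspa1a, Hspa1b, Hspa8, Hspa5) are loaded with clients by J domain proteins (Dnajb1, Dnaja1) and reset by nucleotide exchange factors such as Hsph1, and they pass some clients on to HSP90 (Hsp90aa1, Hsp90ab1). Heat and other protein damage free the transcription factor HSF1 to bind heat shock elements before the inducible genes, whereas Hspa5, also called BiP, answers to unfolded protein in the endoplasmic reticulum. Warm enzymatic digestion of tissue is a known source of stress transcripts, which is why the inducible members are often read beside the mitochondrial share of a cell.

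The promoters of 6 members were held by the RefSeq table used here (GRCm38.p6), each as 250 bases before to 50 after a transcription start, and 4 stretches are shown because they carry the letters that separate the heat shock from the endoplasmic reticulum arm. In the first 2, capitals mark GAANNTTC, a pair of inverted heat shock units that begins 104 bases before the start. In Hsph1, capitals mark TTCNNGAANNTTC, a run of 3 alternating units that begins 15 bases after the start. In Hspa5, capitals mark the endoplasmic reticulum stress element (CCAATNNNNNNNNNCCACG), beginning 65 bases before the start.
Hspa1a, chr17:34972201-34972290, minus strand: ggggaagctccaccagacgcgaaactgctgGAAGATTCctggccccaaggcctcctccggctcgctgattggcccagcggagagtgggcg
Hspa1b, chr17:34959283-34959372, minus strand: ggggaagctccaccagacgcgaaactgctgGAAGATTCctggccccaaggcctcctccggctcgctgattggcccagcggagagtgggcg
Hsph1, chr5:149636284-149636308, minus strand: gctgcagaTTCTGGAAAGTTCtcct
Hspa5, chr2:34772005-34772063, plus strand: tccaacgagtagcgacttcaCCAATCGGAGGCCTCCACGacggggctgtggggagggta

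The Hspa1a and Hspa1b stretches were the same letter for letter, and their whole windows were identical at 296 of 300 bases. These neighbours on chromosome 17 (34969190 to 34972156 and 34956436 to 34959238, GRCm38) are near-identical copies, so reads could be divided between them or dropped by the authors' counting, and the level of each is uncertain. The pair of inverted units (GAANNTTC or TTCNNGAA, both strands) was also found in 1 of 3 Dnaja1 windows, beginning 124 bases before the start. Each of the 2 Hsph1 windows held it 3 times, once before the start and the other times within the longer run. It is a common string, present in 15.1% of all 32851 windows. The run of 3 alternating units (GAANNTTCNNGAA or TTCNNGAANNTTC) was present in 0.603% of windows and the endoplasmic reticulum stress element in 0.119%. Both Dnajb1 windows held none of the 3 strings. Such a match is a string of letters and was not tested as a binding site.

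Of 6000 barcodes, 1632 had more than 500 and at most 8000 detected genes and at most 40% of their UMIs from the 27 genes whose names begin with mt- (mitochondrially encoded transcripts). Between 90 and 405 barcodes were retained per mouse, with 267231 to 2150763 UMIs per mouse and a median of 1965 to 2965 UMIs per cell, and placebo mouse 3 was the smallest library. The lower limit admitted 659 barcodes beyond the 973 with more than 1000 genes. Placebo mouse 1 and EPO mouse 4 shared 41 retained barcode sequences. The median correlation of their profiles was 0.725 at the same barcode against 0.358 at other barcodes, every one of the 41 matched itself best, and the copy in placebo mouse 1 held more UMIs in all 41. These barcodes held 48.1% of the retained UMIs of placebo mouse 1 and 7.16% of those of EPO mouse 4. The edgeR tests were repeated without them as an alternative, and some levels of Hsp90aa1 and Hspa8 are given with and without them. Other levels by class or cluster, shares of cells and correlations are given with them only. Cells were clustered without the 9 members and without mt- genes. The clusters were named from markers as glutamatergic-like (846 cells in clusters 0, 2, 3 and 7), astrocyte-like (233), oligodendrocyte-like (161), microglia-like (98), endothelial cell-like (91), GABAergic-like (80), mural cell-like (51) and oligodendrocyte precursor-like (44), and 28 cells stayed unnamed. The CA1 genes Wfs1, Fibcd1 and Mpped1 summed to 473 CPM (UMIs per 1000000 UMIs) in the glutamatergic-like cells, dentate granule genes to 9.27 and subiculum genes to 196.

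The 9 members took 53105 UMIs, or 0.674% of all retained UMIs. The inducible members held 16590 of them and the constitutive members 32517, and Hspa5 held 3998. Of the inducible UMIs, 80.1% were Hsp90aa1. The other 4 inducible genes were unevenly seen: Hsph1 had 3027 UMIs, whereas Dnajb1 had 148 in 119 cells, Hspa1b 73 in 46 cells and Hspa1a 51 in 42 cells. Counts were not divided by gene length, so levels are compared below within a gene or within a set, as CPM.

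The first comparison asked whether the members differed 6 h after EPO. No member passed the test in any comparison of treatments, and for each of the 9 the placebo and EPO mice overlapped. The share of all genes whose placebo and EPO mice overlapped was not computed. Over all retained cells, the HSP70 cochaperone gene Hsph1 was at 272, 228 and 561 CPM in placebo mice 1, 3 and 5 and at 297, 360 and 432 in EPO mice 2, 4 and 6. Hsp90aa1, the inducible cytosolic HSP90, was at 1874, 1149 and 1307 in placebo mice and at 912, 2484 and 1449 in EPO mice. Its highest and its lowest level were both in EPO mice. Hspa8, the constitutive cytosolic HSP70, was at 709, 442 and 419 in placebo mice and at 301, 786 and 588 in EPO mice. Hsp90ab1, the constitutive HSP90, was at 2737, 1931 and 4036 in placebo mice and at 2023, 3326 and 3486 in EPO mice. The spread between mice of one treatment was wider than the gap between the treatments for each of these genes. Dnaja1, a J domain partner of Hspa8, was at 404, 284 and 316 in placebo mice and at 323, 417 and 443 in EPO mice, and Hspa5 was at 502, 513 and 577 against 478, 374 and 652.

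**Figure D1:**
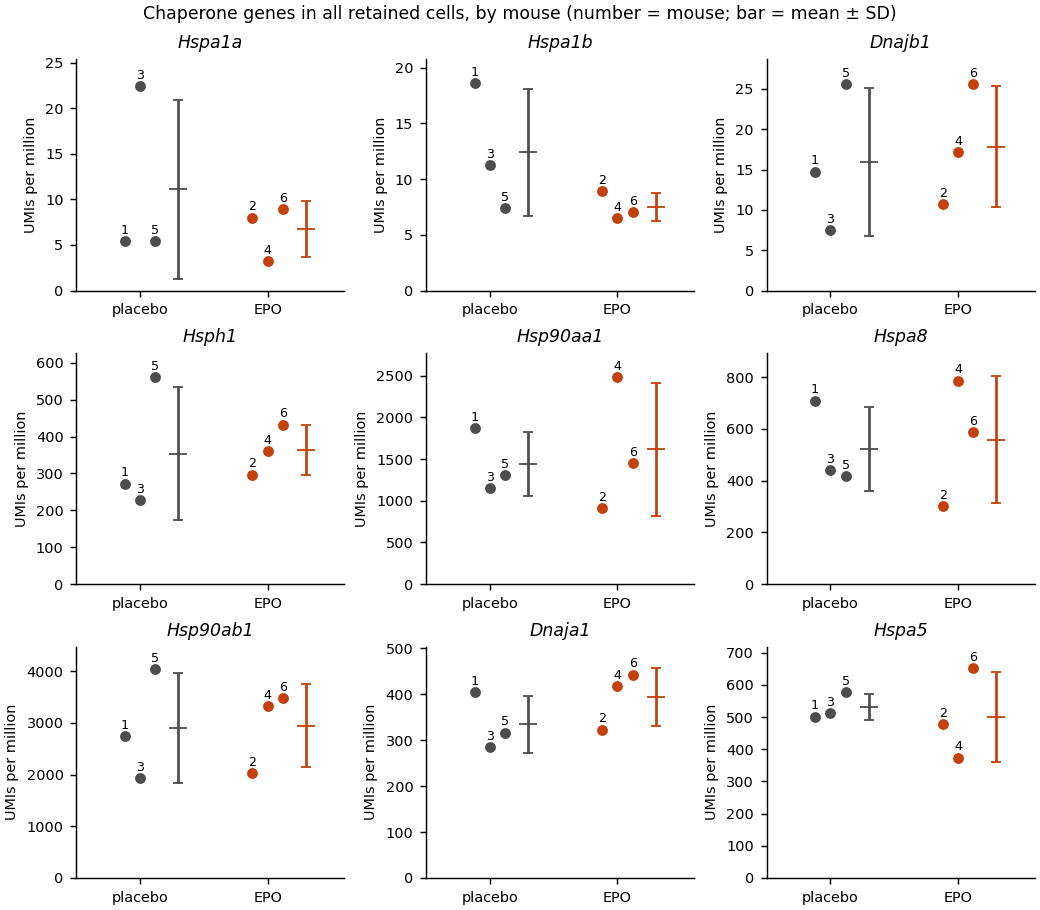
Level of each of the 9 members over all retained cells, 1 point per mouse, with the placebo and EPO mice side by side and the mean ± SD of each group beside its points, in CPM. Hsp90aa1 spans 912 to 2484 within the EPO mice, and in all 9 panels the groups overlap.

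The 3 sparse inducible genes rested on few molecules in every library. Dnajb1, the J domain partner of inducible HSP70, was at 14.7, 7.48 and 25.6 CPM in placebo mice and at 10.7, 17.2 and 25.6 in EPO mice. Hspa1a was at 5.43, 22.5 and 5.39 against 8.0, 3.25 and 8.97, and its highest value came from placebo mouse 3, the smallest library. Hspa1b was at 18.6, 11.2 and 7.42 in placebo mice and at 8.89, 6.51 and 7.05 in EPO mice. The lowest placebo value lay inside the range of the EPO mice.

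In edgeR's quasi-likelihood test on UMIs summed per mouse, 0 of 10551 genes differed between EPO and placebo over all cells at 5% after Benjamini-Hochberg adjustment (0%), and 138 genes, none of them a member, had an unadjusted p under 0.05. The log2 difference, EPO minus placebo, was -0.82 for Hspa1b (95% interval -1.93 to 0.28, unadjusted p = 0.128 in edgeR), the smallest p among members. It was 0.11 for Hsp90aa1 (-0.75 to 0.97), 0.03 for Hspa8 (-0.78 to 0.83), -0.03 for Hsp90ab1 (-0.77 to 0.72) and -0.02 for Hsph1 (-0.70 to 0.66). For Dnajb1 it was -0.05 (-0.96 to 0.85). The intervals were narrowest for Hspa5 (-0.65 to 0.36) and Dnaja1 (-0.34 to 0.68), and were widest for Hspa1a (-1.88 to 1.15). All 9 had an adjusted p of 0.9997 in edgeR.

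No member was called within a single class either. Glutamatergic-like cells were 30 to 61.1% of the retained cells of a mouse, so the values over all cells also carry the mixture of classes. In these cells alone 7 members could be tested and none was called among 0 of 8808 genes (0%), with 152 genes at an unadjusted p under 0.05 in edgeR and no member among them. Dnaja1 had a log2 difference of 0.16 (95% interval -0.31 to 0.63), Hsp90ab1 of -0.05 (-0.61 to 0.51) and Hsph1 of -0.08 (-0.55 to 0.39). Hsp90aa1 was at 0.08 (-0.57 to 0.73), Hspa8 at 0.006 (-0.66 to 0.67), Dnajb1 at -0.22 (-1.03 to 0.58) and Hspa5 at -0.16 (-0.61 to 0.30). In astrocyte-like cells 0 of 1421 genes were called (0%) and the member with the smallest p was Hsp90ab1, at -0.59 (-1.29 to 0.11, unadjusted p = 0.0915 in edgeR). In oligodendrocyte-like cells 0 of 1644 genes were called (0%) and the smallest p belonged to Hsph1, at -0.40 (-1.12 to 0.32, unadjusted p = 0.256 in edgeR). In those 2 classes 52 and 30 genes had an unadjusted p under 0.05, and none was a member.

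Hsp90aa1 and Hspa8 stood highest in the 2 libraries that shared barcodes. In glutamatergic-like cells Hsp90aa1 was at 2180 CPM in placebo mouse 1 and 2745 in EPO mouse 4, and between 1091 and 1644 in the other 4 mice. Hspa8 was at 784 and 901 in those libraries and between 323 and 612 in the others. Without the shared barcodes Hsp90aa1 in placebo mouse 1 was at 1637 and Hspa8 at 540, both inside the range of the other 4 mice, while EPO mouse 4 stayed at 2787 and 902. Over all cells the log2 difference of Hsp90aa1 between EPO and placebo was -0.38 without EPO mouse 4 and 0.38 without placebo mouse 1, and that of Hspa8 was -0.34 and 0.36.

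The second comparison set the inducible against the constitutive members in each cell class. Glutamatergic-like cells held 2217 ± 645 CPM of the inducible set (SD, n = 6 mice) and 4278 ± 1058 of the constitutive set, and oligodendrocyte-like cells 1981 ± 742 and 3459 ± 487 (n = 6). Astrocyte-like cells held 714 ± 290 and 1785 ± 562 (n = 6), and microglia-like cells 711 ± 305 and 2000 ± 681 (n = 5). In endothelial cell-like cells the inducible set was at 494 ± 181 while the constitutive set was at 3391 ± 496 (n = 5). Of the UMIs of both sets, the inducible share was 39.1% in oligodendrocyte-like cells, 35.5% in GABAergic-like, 34.0% in glutamatergic-like, 28.6% in both astrocyte-like and microglia-like, 26.6% in mural cell-like, 26.4% in precursor-like and 13.4% in endothelial cell-like cells. Hsp90aa1 gave between 61.8 and 93.0% of the inducible UMIs of a class, so this share mostly reads Hsp90aa1. Glutamatergic-like and oligodendrocyte-like levels did not differ beyond their spread over mice in either set.

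**Figure D2:**
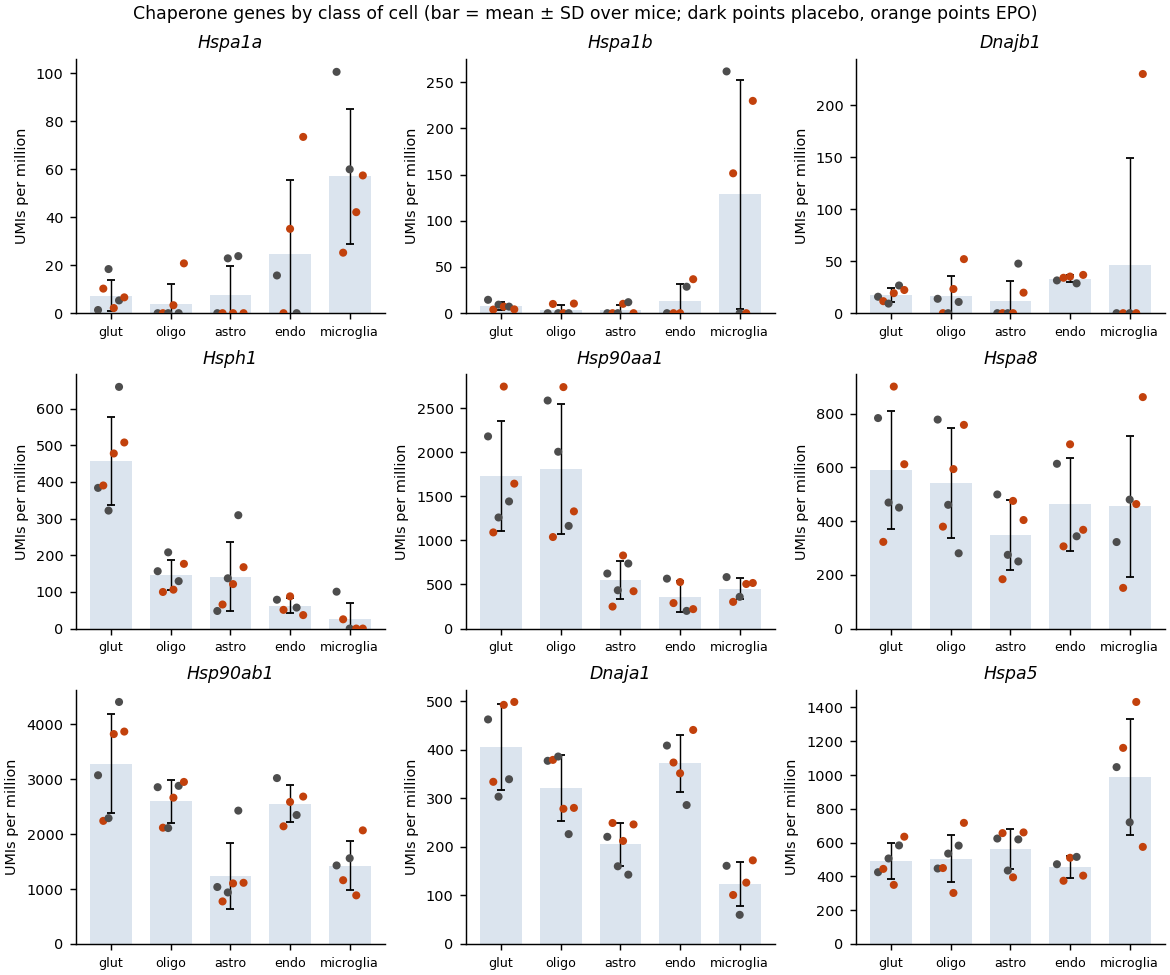
Level of the members in the glutamatergic-like, oligodendrocyte-like, astrocyte-like, endothelial cell-like and microglia-like classes, in CPM. Each point is 1 mouse with at least 10 cells of the class, and bars show the mean ± SD over mice. The Hsp90aa1 points of the endothelial cell-like class lie between 200 and 566, below all glutamatergic-like points (1091 to 2745).

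Among inducible members, Hsph1 was highest in glutamatergic-like cells, and Hsp90aa1 in glutamatergic-like and oligodendrocyte-like cells. Hsph1 was at 457 ± 120 CPM in glutamatergic-like cells (SD, n = 6), 146 ± 42.2 in oligodendrocyte-like (n = 6), 142 ± 93.6 in astrocyte-like (n = 6), 62.3 ± 20.8 in endothelial cell-like (n = 5) and 25.2 ± 43.6 in microglia-like cells (n = 5). Its oligodendrocyte-like and astrocyte-like levels lay within each other's spread. Hsp90aa1 was at 1727 ± 625 in glutamatergic-like, 1811 ± 742 in oligodendrocyte-like, 550 ± 218 in astrocyte-like, 454 ± 117 in microglia-like and 361 ± 174 in endothelial cell-like cells. The first 2 classes lay within each other's spread and so did the last 3. In the 44 precursor-like cells, pooled over mice, it was at 910. The sparse Dnajb1 was at 17.4 ± 6.57 in glutamatergic-like, 16.6 ± 19.4 in oligodendrocyte-like and 11.2 ± 19.5 in astrocyte-like cells. It was at 33.2 ± 3.21 in endothelial cell-like cells, on 8 UMIs, and at 46.0 ± 103 in microglia-like cells, on 4 UMIs from 1 mouse.

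The constitutive members differed less between classes. Hsp90ab1 was at 3283 ± 895 in glutamatergic-like, 2595 ± 385 in oligodendrocyte-like, 2556 ± 334 in endothelial cell-like, 1421 ± 445 in microglia-like and 1232 ± 599 in astrocyte-like cells. Hspa8 was at 590 ± 219, 542 ± 203, 463 ± 173, 456 ± 263 and 348 ± 130 in the same order, with each level inside the spread of its neighbours. Dnaja1 was at 405 ± 88.8, 321 ± 68.2, 372 ± 59.0, 124 ± 45.7 and 205 ± 44.4. Hspa5 took another order, at 987 ± 344 in microglia-like, 565 ± 118 in astrocyte-like, 505 ± 141 in oligodendrocyte-like, 490 ± 106 in glutamatergic-like and 455 ± 63.4 in endothelial cell-like cells (n = 5 mice for the first and last, 6 for the others). The microglia-like mice ran from 574 to 1432 and overlapped the astrocyte-like mice (394 to 660), and the other neighbours lay within each other's spread.

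Each class was tested against the glutamatergic-like cells with the mouse in the model (edgeR quasi-likelihood test, Benjamini-Hochberg at 5% over all genes). The members had no part in the clustering, but the classes were made from the same cells. In astrocyte-like cells 5 of 6 tested members were lower, beside 36% of all 3331 genes, and Hspa5 was higher, beside 29.7%. Hsph1 differed by -1.49 ± 0.24 on the log2 scale (SE, adjusted p = 2.17e-06 in edgeR), Hsp90aa1 by -1.38 ± 0.19, Hsp90ab1 by -1.19 ± 0.19, Dnaja1 by -0.68 ± 0.20, Hspa8 by -0.45 ± 0.18 and Hspa5 by 0.52 ± 0.18. The calls of Hspa8 and Hspa5 were lost on leaving out single mice, down to -0.26 without placebo mouse 5 and 0.43 without placebo mouse 3, and that of Dnaja1 at -0.47 without placebo mouse 5.

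In endothelial cell-like cells 5 of 9 fitted members were lower, beside 33.6% of all 8703 genes, and 0 were higher, beside 16%. Hsph1 differed by -3.25 ± 0.35 (adjusted p = 6.09e-19 in edgeR) and Hsp90aa1 by -2.75 ± 0.30 (adjusted p = 5.17e-19 in edgeR), against -0.86 ± 0.28 for Hsp90ab1, -0.81 ± 0.26 for Hspa8 and -0.62 ± 0.25 for Dnaja1. The inducible pair thus lay further from the glutamatergic-like level than any constitutive member, a difference between genes that was not itself tested. Hspa5 was at -0.48 (95% interval -0.97 to 0.008) and was not called. Hspa1a, Hspa1b and Dnajb1 could pass the filter on low counts only with endothelial cell-like sums, so no test of them is given. Their fitted values were 1.74 ± 0.98, -0.21 ± 1.22 and 0.44 ± 0.67. In endothelial cell-like cells they rested on 7 UMIs (in 5 cells), 4 UMIs and 8 UMIs. Scaling by total UMIs left 2 members called in these cells (Hsph1 and Hsp90aa1), and the calls of Hsp90ab1 and Dnaja1 were also lost without EPO mouse 4 (-0.71 and -0.42) or without placebo mouse 5 (-0.61 and -0.48), that of Dnaja1 also without placebo mouse 1 (-0.61) or EPO mouse 6 (-0.55). The Dnaja1 call was also lost without the shared barcodes (-0.57). Hemoglobin and other blood genes summed to 47061 CPM in these cells, and their part in the result was not tested.

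In microglia-like cells 5 of 7 fitted members were lower, beside 38.3% of all 2791 genes, and of these Hsph1 is given as a description. Of the other 2, Hspa5 was higher, beside 27.8%, and Hspa1b is given below as a description. Hsp90aa1 differed by -2.29 ± 0.33, Dnaja1 by -2.06 ± 0.40, Hsp90ab1 by -1.46 ± 0.30 and Hspa8 by -0.93 ± 0.32. Hsph1, with 6 UMIs in all microglia-like cells, passed the filter on low counts only through glutamatergic-like sums. Its fitted value of -3.73 ± 0.51 thus had its direction set by the filter, and no test of it is given. Hspa5 was higher by 0.78 ± 0.29, a call lost without any one of placebo mouse 1, EPO mouse 2, placebo mouse 3 or EPO mouse 4 (0.54 to 0.70), and the call of Hspa8 was lost without placebo mouse 1 (-0.72) or EPO mouse 4 (-0.80). The Hspa5 call was also lost under DESeq2 (0.62) or with no filter on low counts (0.24), and that of Hspa8 under total UMI scaling (-0.62). Hspa1b passed the filter on low counts here only through microglia-like sums, with 38 UMIs in all glutamatergic-like cells, so its fitted value of 3.87 ± 0.66 had its direction set by the filter and no test of it is given.

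The Hspa1b value in microglia-like cells came from 23 UMIs in 9 of 98 cells. Placebo mouse 1 gave 13 UMIs in 6 of 26 cells, EPO mouse 2 gave 6 UMIs in 1 of 26, EPO mouse 6 gave 4 UMIs in 2 of 16, and placebo mouse 3 (11 cells) and EPO mouse 4 (19 cells) gave 0. Placebo mouse 5 had no microglia-like cell. The transcript was thus seen in 3 of 5 mice and was carried by a few cells, 5 of which also held Hspa1a, and 1 of the 9 carried a shared barcode. At their own depths 9.18% of microglia-like cells (median 1216 UMIs) and 3.19% of glutamatergic-like cells (median 3684 UMIs) held an Hspa1b UMI. After thinning each cell to 750 UMIs the shares were 5.10% (exact binomial 95% interval 1.68 to 11.5) and 0.474% (0.129 to 1.21), and barcodes with at most 500 genes held the transcript at 3.54 CPM. Such intervals cover counting error only. Hspa1a was seen in 8 microglia-like cells from all 5 mice, with 9 UMIs, and was too sparse for the test.

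In oligodendrocyte-like cells 1 of 6 tested members was lower, beside 35.9% of all 6550 genes, and 0 were higher, beside 28.5%. Hsph1 differed by -1.53 ± 0.20 (adjusted p = 5.17e-10 in edgeR). Hsp90aa1 had a difference of 0.17 (95% interval -0.24 to 0.59), Hspa8 of 0.02 (-0.35 to 0.39), Hsp90ab1 of -0.17 (-0.61 to 0.26), Dnaja1 of -0.22 (-0.58 to 0.13) and Hspa5 of 0.17 (-0.18 to 0.51).

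The glutamatergic-like reference was itself of 2 kinds, which differed in depth and in the level of several members. Clusters 3 and 7 held 253 cells with median UMI counts of 10292 and 9128, and clusters 0 and 2 held 593 cells with medians of 2765 and 2549.5. Dnaja1 was at 632 ± 136 CPM in clusters 3 and 7 (SD, n = 5 mice) and at 117 ± 55.1 in clusters 0 and 2 (n = 6), Hspa8 at 903 ± 370 and 212 ± 89.3, and Hsp90aa1 at 2545 ± 942 and 763 ± 391. Hsph1 was at 636 ± 81.7 and 219 ± 79.8, Hsp90ab1 at 4488 ± 511 and 1782 ± 602, and Hspa5 at 570 ± 112 and 329 ± 96.9. The mice of the 2 kinds overlapped for Hspa5 and for the sparse genes, with Dnajb1 at 24.5 ± 2.2 and 10.1 ± 8.80, Hspa1a at 7.53 ± 6.32 and 4.60 ± 6.71 and Hspa1b at 9.25 ± 7.22 and 4.95 ± 3.95. Hspa1a and Hspa1b had 0 UMIs in the 192 cells of cluster 2, an upper limit of 6.02 CPM, and Hspa1b also had 0 in the 86 cells of cluster 7, an upper limit of 3.01. The values are a description, since the clusters came from these cells, and the share of all genes that separate the 2 kinds was not computed.

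**Figure D3:**
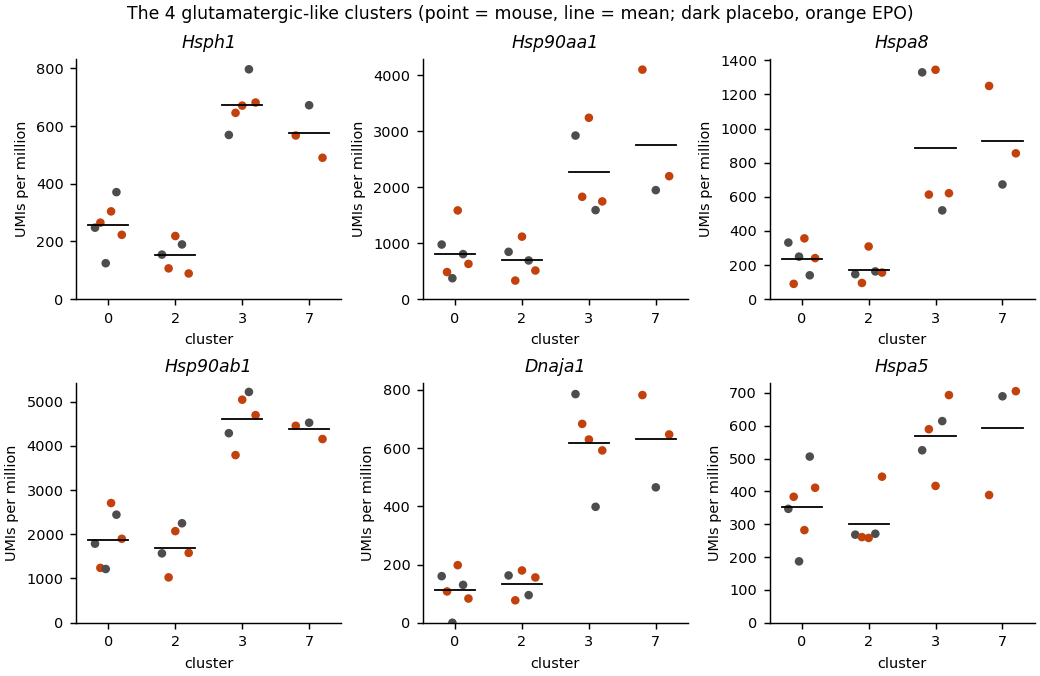
Hsph1, Hsp90aa1, Hspa8, Hsp90ab1, Dnaja1 and Hspa5 in the 4 glutamatergic-like clusters, 1 point per mouse with at least 10 cells, placebo in dark and EPO in orange, in CPM, with lines at the means. The points of clusters 3 and 7 lie above those of clusters 0 and 2 for every gene shown but Hspa5, by a narrow margin for Hsp90aa1.

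Which clusters served as the reference changed the direction for some constitutive members. Against clusters 0 and 2 alone, the log2 difference of Hspa8 was 0.56 in astrocyte-like, 0.42 in endothelial cell-like and 0.18 in microglia-like cells, that of Dnaja1 was 0.59 in astrocyte-like, 0.73 in endothelial cell-like and 1.18 in oligodendrocyte-like cells, and those of Hsp90ab1 and Hsp90aa1 were 0.42 and 1.1 in oligodendrocyte-like cells. Hsp90aa1 kept its lower calls in astrocyte-like, endothelial cell-like and microglia-like cells against either pair of clusters, and Hsph1 in astrocyte-like and endothelial cell-like cells. The median gene moved from -0.13 to -0.48 in astrocyte-like and from -0.52 to -0.10 in endothelial cell-like cells when totals replaced trimmed-mean scaling, where 770 genes were higher and 1504 lower in place of 989 and 1200, and 1828 higher and 2150 lower in place of 1392 and 2925.

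The third comparison related the members to the mt- share, which is often read as a sign of damaged cells. The glutamatergic-like cells of each mouse were split at that mouse's median mt- share, and mt- UMIs were left out of counts and totals. All 6 members that could be tested were lower in the cells above the median, beside 30.7% of all 6964 genes, and none was higher, beside 22.9%. Hspa8 was at 1111, 725 and 565 CPM below the median in placebo mice 1, 3 and 5 and at 184, 77.6 and 225 above it, and in EPO mice 2, 4 and 6 it was at 487, 1226 and 714 below and at 108, 277 and 181 above. The 2 sets of values did not overlap. Dnaja1 was at 633, 459 and 437 below and 191, 77.6 and 139 above in placebo mice, and at 493, 670 and 592 below and 142, 155 and 90.5 above in EPO mice. Hsp90aa1 was at 2936, 1821 and 1713 below and 1052, 505 and 1055 above in placebo mice, and at 1612, 3581 and 1913 below and 455, 1367 and 515 above in EPO mice. Neither gene's values overlapped between the 2 sets of cells, and the same held for Hsph1 and Hsp90ab1. The share of all genes whose values did not overlap in this split was not computed.

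The log2 difference, above minus below, was -1.94 ± 0.16 for Hspa8 (SE, adjusted p = 1.06e-26 in edgeR), -1.88 ± 0.17 for Dnaja1, -1.35 ± 0.14 for Hsp90aa1, -1.08 ± 0.15 for Hsph1, -0.99 ± 0.14 for Hsp90ab1 and -0.51 ± 0.15 for Hspa5 (adjusted p = 0.00164 in edgeR). In all 6 mice each of the 6 was lower above the median. Hspa5, from 413 to 725 below and from 155 to 507 above, was the one tested member whose values overlapped. Its call was lost in cells with more than 1000 genes (-0.23). The sparse Dnajb1 was at 22 ± 6.0 below and 9.56 ± 9.53 above (SD, n = 6 mice), on 93 and 13 UMIs. Hspa1b was at 10.6 ± 6.81 below and 3.51 ± 6.79 above, on 34 and 4 UMIs, and Hspa1a at 8.35 ± 6.23 and 7.97 ± 15.3, on 25 and 3, and for both genes the values overlapped. Over single cells within a mouse, the median Spearman rho with the mt- share ran from -0.16 for Hspa1a to -0.62 for Hsp90ab1, where cells share a library and rho also follows depth.

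**Figure D4:**
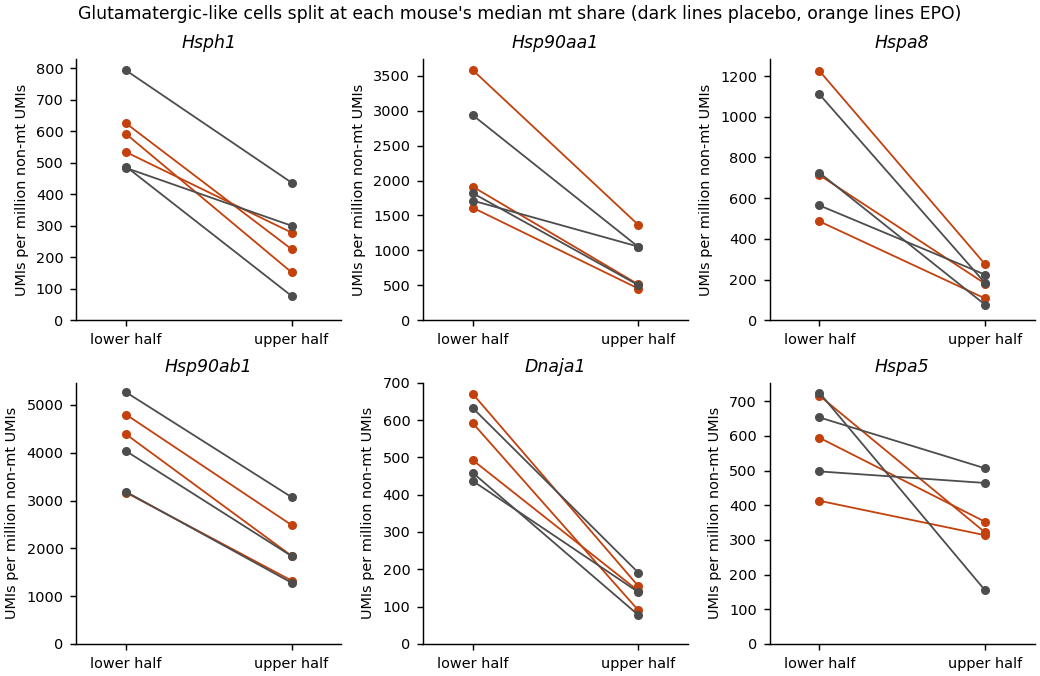
Members in glutamatergic-like cells below and above the median mt- share of their own mouse, with 1 line per mouse, in CPM without mt- genes. For the 6 tested members every line falls from the cells below to the cells above, and Hspa8 goes from 487 to 1226 down to 77.6 to 277.

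Other measures moved with the same split. The cells above the median had median counts of 1957 to 3255.5 UMIs per mouse against 3645 to 9658.5 below, and 89.7 to 100% of them were in clusters 0 and 2 against 21.6 to 71.4% below. All 7 glutamatergic marker genes were detected in both sets. Their sum was 2188 CPM above (1934 to 2534 over mice) and 3640 below (3040 to 3961), while the 8 oligodendrocyte genes summed to 2537 above and 1503 below and the 8 astrocyte genes to 678 and 454. The 6 mural cell genes summed to 103 above and 30.8 below and the 5 blood genes to 380 above and 1984 below, where 1 mouse reached 11452. The part of these in the result was not tested. Within cluster 0 alone, 146 genes were called, and of the members Hspa8 (-1.09) and Hsp90aa1 (-0.45) were lower. Within cluster 2, 7 genes were called, and within cluster 3, 2 genes, with no member in either.

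In astrocyte-like cells, which formed 1 cluster, the same split gave 0 of 1037 genes (0%) in edgeR and 69 at an unadjusted p under 0.05. None of the 5 tested members was among them. Hsp90aa1 was at -0.50 (95% interval -1.01 to 0.02, unadjusted p = 0.0609 in edgeR), Hsp90ab1 at -0.19 (-0.60 to 0.22), Hspa8 at 0.07 (-0.52 to 0.66), Hspa5 at 0.19 (-0.30 to 0.67) and Dnaja1 at 0.34 (-0.37 to 1.05). The difference between the 2 classes was not tested.

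Across the 6 mice, the level in glutamatergic-like cells was set against the median mt- share of those cells, whose lowest value was 4.91% (EPO mouse 6) and highest 22.1% (EPO mouse 2). Of 9 relations none passed Benjamini-Hochberg adjustment. Dnajb1 had the strongest, with Pearson's r of -0.88 (exact permutation p = 0.025, adjusted 0.225) and Spearman's rho of -0.89 (exact permutation p = 0.0333, adjusted 0.3), and r was -0.90 without the 2 mice farthest from the median share. Hsp90ab1 followed with r of -0.79 (exact permutation p = 0.0694, adjusted 0.3125) and rho of -0.66 (exact permutation p = 0.175, adjusted 0.544). The titles also give each mouse a D number whose meaning is not stated. The share was 18.1 to 22.1% in the 3 mice of D number 1 and 4.91 to 13.4% in the 3 of D number 2, and Dnajb1 in glutamatergic-like cells was at 9.20 to 15.8 and 19.2 to 26.6 CPM. These CPM are over all UMIs, whereas the correlations above used levels without mt- UMIs. The lowest Dnajb1 level rested on 1 UMI, in placebo mouse 3. The permutation took no account of the D number, 3 mice are too few for a relation within a D number, and the D number and the mt- share cannot be told apart.

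The wider chaperone lists add the partners of the members. Their counts stand beside 29.7% of all genes higher and 36% lower in astrocyte-like, 16 and 33.6% in endothelial cell-like, 27.8 and 38.3% in microglia-like and 28.5 and 35.9% in oligodendrocyte-like cells. A gene that is scarce in glutamatergic-like cells could enter a test only through the class where it is high, and a gene scarce in a class only through the glutamatergic-like cells. Among endoplasmic reticulum chaperones, the partners of Hspa5, 4 of 6 tested genes were higher and 0 lower in astrocyte-like cells, with Pdia3, a disulfide isomerase, at 0.72 and Canx, a lectin chaperone, at 0.64. The list's median was 0.63 beside -0.13 over all genes tested. In microglia-like cells 3 of 6 were higher and 0 lower, with Hsp90b1, the HSP90 of the endoplasmic reticulum, at 1.20 and Pdia3 at 1.0, and the median was 0.76 beside -0.33. In oligodendrocyte-like cells 3 of 11 were higher and 0 lower, with Pdia4 at 1.39 and Canx at 0.66, and the median was 0.08 beside -0.16. In endothelial cell-like cells 1 of 13 was higher and 0 lower, Herpud1 at 1.5, a gene of the degradation pathway of this organelle.

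Small heat shock proteins, which hold unfolded protein without ATP, were abundant enough for the test in few classes. In endothelial cell-like cells Hspb1 was fitted at 8.88 ± 0.51 and Hspb8 at 5.27 ± 0.93 (SE), but both passed the filter only through the endothelial cell-like sums, so these values are a description. The single gene tested in oligodendrocyte-like cells, Cryab, was higher at 6.81 ± 0.31 (adjusted p = 9.09e-31 in edgeR). None could be tested in astrocyte-like or microglia-like cells. Of the other HSP70 and HSP110 genes, 3 of 5 tested were lower in astrocyte-like, 5 of 7 in endothelial cell-like, 3 of 4 in microglia-like and 3 of 7 in oligodendrocyte-like cells, and 1, 0, 0 and 0 were higher. Hspa12a, an atypical HSP70, was at -2.80, -3.40, -5.20 and -2.83 in those classes, and the gene that was higher was Hspa2, in astrocyte-like cells at 3.22. The microglia-like value of Hspa12a ran to -9.61 with 1 mouse left out. It rested on very few UMIs in those cells and is a description, though it stands in the count.

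Among J domain genes, 4 of 13 were higher and 5 lower in oligodendrocyte-like cells, near the shares over all genes there, with Dnajb2 at 3.99 and Dnajc5, a cochaperone of synaptic vesicles, at -1.28. In astrocyte-like cells 3 of 9 were higher and 4 lower, with Dnajc3 and Dnajb9, both of the endoplasmic reticulum, at 2.01 and 2.09. In endothelial cell-like cells 1 of 12 was higher and 8 lower, with Dnajc6 at -4.79 and Dnajc5 at -1.49, and in microglia-like cells 1 of 5 was higher and 2 lower, with Dnajc5 at -1.48 and Dnajc7 at 0.83. The Dnajc6 value ran to -8.77 with 1 mouse left out. It rested on very few UMIs in endothelial cell-like cells and is a description, though it stands in the count. Cochaperones of HSP70 and HSP90 were higher in 1 and lower in 2 of 9 in astrocyte-like cells (Ahsa1, which speeds the HSP90 cycle, at -1.33 and Chordc1 at -1.24), 1 and 6 of 14 in endothelial cell-like cells (Ppid at -1.64 and Stub1 at -1.22), 1 and 1 of 7 in microglia-like cells (Fkbp5 at 2.14 and Stub1 at -1.13) and 3 and 2 of 13 in oligodendrocyte-like cells (Bag1 at -1.08 and Fkbp4 at 0.86).

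Mitochondrial chaperones were higher in 1 of 4 tested in astrocyte-like cells (Hspe1 at 0.87), lower in 3 of 7 in endothelial cell-like cells (Hspd1 at -1.33 and Hspe1 at -1.54), lower in 1 of 3 in microglia-like cells (Hspd1 at -1.18) and called in 0 of 7 in oligodendrocyte-like cells. Subunits of the cytosolic chaperonin were lower in 1 of 8 in astrocyte-like cells (Cct8 at -0.67), 2 of 8 in endothelial cell-like cells (Cct6a at -1.08 and Tcp1 at -1.06) and 2 of 6 in microglia-like cells (Cct2 at -2.05 and Cct6a at -1.18), and 1 of 8 was higher in oligodendrocyte-like cells (Cct3 at 0.60). Of the heat shock factor list, Hsbp1, which binds HSF1, was lower in endothelial cell-like cells (-0.96) and microglia-like cells (-1.0) and higher in oligodendrocyte-like cells (0.51), with 0 of 1 called in astrocyte-like cells. Immediate early genes, induced within minutes of stimulation or digestion, were higher in 8 and lower in 2 of 13 in endothelial cell-like cells (Klf4 at 8.22 and Klf2 at 6.83, both known as transcription factors that endothelium expresses under flow), 5 and 1 of 6 in microglia-like cells (Zfp36 at 5.65 and Btg2 at 3.70), 1 and 1 of 4 in astrocyte-like cells (Egr1 at -4.92 and Jun at 1.12) and 2 and 3 of 6 in oligodendrocyte-like cells (Egr1 at -4.08 and Jund at 1.62). Genes of this list that are scarce in glutamatergic-like cells had their direction set by the filter.

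In glutamatergic-like cells above the median mt- share, every list but the small heat shock proteins held lower genes and no list held a higher one, beside 30.7% lower and 22.9% higher over all 6964 genes. All 8 chaperonin subunits were lower (Cct6a at -1.48 and Tcp1 at -1.45), as were 10 of 13 cochaperones (Ahsa1 at -2.34 and St13 at -1.23), 8 of 12 endoplasmic reticulum chaperones (Pdia3 at -1.25 and Hsp90b1 at -0.68), 7 of 12 other J domain genes (Dnaja2 at -1.38 and Dnajb6 at -1.39), 5 of 7 other HSP70 and HSP110 genes (Hspa4 at -1.02 and Hspa9 at -1.06), 4 of 7 mitochondrial chaperones (Hspd1 at -1.54 and Hspe1 at -1.60) and 1 of 2 heat shock factors (Hsbp1 at -1.56). The medians of these 7 lists ran from -1.32 for the chaperonin to -0.62 for J domain genes, beside -0.07 over all genes tested. Immediate early genes had a median of -0.08, with 2 of 7 lower (Egr1 at -0.85 and Jund at -0.80). For EPO against placebo no gene of any list was called in any of the 4 comparisons, and over all cells the list medians ran from -1.04 for the small heat shock proteins (2 genes) to 0.26 for the other HSP70 and HSP110 genes (7 genes).

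The members did not form a single pattern over the 34 sums of a class in a mouse with at least 10 cells. As a description across sums that share libraries, Hsph1 and Hsp90aa1 correlated at 0.63, Dnaja1 and Hsph1 at 0.60 and Hspa8 and Hsp90aa1 at 0.58. Hspa1a and Hspa1b correlated at 0.48 with each other and at -0.49 and -0.25 with Hsph1. Hspa5 correlated negatively with Dnajb1, Hsph1, Hsp90aa1, Hspa8, Hsp90ab1 and Dnaja1, from -0.20 to -0.44. Among 6391 genes with at least 200 UMIs, the pattern most like Hspa5 was that of Frmd4a (0.70), then Itm2b (0.69) and Hsp90b1 (0.67). Those most like Hspa8 were Ndufb4 (0.71), Ppp4r2 (0.63) and Lsm7 (0.61), and those most like Dnajb1 were Faf2 (0.66), Psmd4 (0.66) and Eif5a (0.65).

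Shares of cells with a UMI, after thinning every cell to 750 UMIs, gave the members' spread over cells. Their intervals cover counting error only, since cells of a mouse share a library, and no difference between classes was tested on them. Hsp90aa1 was in 75.8% of 161 oligodendrocyte-like cells (exact binomial 95% interval 68.4 to 82.2), 49.1% of 843 glutamatergic-like cells (45.7 to 52.5), 28.3% of 233 astrocyte-like cells (22.6 to 34.6) and 21.3% of 89 endothelial cell-like cells (13.4 to 31.3). Hsph1 was in 22.7% of glutamatergic-like cells (19.9 to 25.6) and 9.32% of oligodendrocyte-like cells (5.31 to 14.9). Hspa5 was in 45.9% of 98 microglia-like cells (35.8 to 56.3) and 25.0% of glutamatergic-like cells (22.1 to 28.1). Dnajb1 was in 1.54% of glutamatergic-like cells (0.824 to 2.62) and 0.429% of astrocyte-like cells (0.0109 to 2.37), or 1.28 ± 0.866% and 0.333 ± 0.816% as means over mice (SD, n = 6), with no test. Before thinning, Hsp90aa1 was in 80.4% of glutamatergic-like cells and Hspa5 in 65.2%.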

How the data were processed

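Per the labels and the methods, CA1 cells of 6 mice were captured by Drop-seq, 1 library per mouse, and the submitters' processing notes name bcl2fastq 2.15, STAR 2.4.0 and the genome build mm10. The authors deposited raw UMI counts per gene and barcode, 1000 barcodes per mouse in 1 table, where an empty cell was read as 0. Reads of near-identical copies could be lost in such counting, and the handling of strand and multimapping reads is not given in the sources used here.

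Barcodes were kept above 500 and up to 8000 detected genes, with an mt- share of no more than 40%. Cells were integrated across treatments and clustered in Seurat 5.3.0 (20 dimensions, resolution 1, 1518 variable genes without the members and mt- genes), and clusters were named from fixed markers. Scrublet (scanpy 1.11.5) called 0 to 1.88% of the cells of a mouse as doublets, 0.494% in EPO mouse 4, and they were kept. UMIs were summed per mouse and class with at least 10 cells and tested in edgeR 4.0.16 (R 4.3.3): quasi-likelihood, trimmed-mean scaling, filterByExpr with a minimum count of 10, Benjamini-Hochberg at 5%. The mouse was the replicate. Class and mt- comparisons had the mouse as a term and needed at least 4 mice. Permutation tests and correlations used scipy 1.17.1. The edgeR fit was tested on simulated counts, for EPO against placebo in glutamatergic-like cells and for astrocyte-like against glutamatergic-like cells. The other steps were not tested on simulated data. The floor for a gene at 0 is 3 UMIs, and intervals have 95% coverage.

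The 9 members were followed in every comparison, but not every value of each is given. List genes are named by smallest adjusted p under 0.05. The members and lists were chosen with earlier results of these data known. Alternatives used DESeq2 1.42.0, limma 3.58.1, other scalings, filters, cell sets and single mice left out. Others left out called doublets or the shared barcodes, or added the D number to the model.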

Additional observations from a re-analysis of the deposited data

Results flagged for a closer look

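UMIs of the members were also found outside the retained cells, in barcodes with at most 500 detected genes, which no comparison used. Hsp90ab1 had 1849 UMIs there (1311 CPM against 3162 in retained cells), Hsp90aa1 743 (527 against 1688), Hspa5 433 (307 against 508), Hspa8 251 (178 against 584), Hsph1 241 (171 against 384) and Dnaja1 171 (121 against 383). The sparse genes had 11 UMIs for Dnajb1 (7.80 CPM against 18.8), 5 for Hspa1b (3.54 against 9.27) and 4 for Hspa1a (2.84 against 6.48). For each of the 9 the CPM was lower there than in the retained cells, and no test was made. Whether a single mouse stood apart was not tested.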

How the results depend on the processing

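No member was called between EPO and placebo under any alternative. Of 400 alternative values for the 25 called member differences, 346 kept their direction and call, 46 lost the call and 8 reversed. The 25 include Hsph1 and Hspa1b in microglia-like cells, whose direction was set by the filter. No paired analysis was possible because the placebo and EPO mice share no replicate number. Alternatives on the shared barcodes, on clusters of many (3 and 7) or few (0 and 2) UMIs, on the mt- split within 1 cluster and on mt- UMIs in the class comparisons were chosen after seeing the data. Unless stated, the cause of a change was not tested.

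For EPO against placebo, with no filter on low counts 21 genes were called over all cells, 12 in glutamatergic-like, 52 in astrocyte-like and 1 in oligodendrocyte-like cells. DESeq2 called 1 over all cells, and the D number as a term called 1 in astrocyte-like cells. None was a member. Leaving out single mice gave 0 to 6 genes in glutamatergic-like cells, the 6 without placebo mouse 5. Over all cells, Hspa1b (-1.24 to -0.19) and Dnaja1 (0.079 to 0.37) kept their sign under every alternative, and the other members turned in at least 1. There, limma-trend gave Dnajb1 0.17, Hsph1 0.086 and Hspa8 -0.020, the D number as a term gave Hsp90aa1 -0.054 and Hspa8 -0.096, and leaving the shared barcodes out of both libraries gave Dnajb1 0.021 and Hsp90ab1 0.031. In glutamatergic-like cells, limma-trend gave Dnajb1 0.036, Hsph1 0.0035 and Hspa8 -0.034, the D number gave Hsp90aa1 -0.024 and Hspa8 -0.099, clusters of many UMIs gave Hsp90aa1 -0.065 and Hspa8 -0.11, and clusters of few UMIs gave Hsp90ab1 0.008. Hspa8 there was also at -0.0006 under relative log scaling, -0.023 in cells with more than 1000 genes and -0.001 without called doublets. With 1 mouse left out, values over all cells ran from -0.72 to 0.22 for Hspa1a (the highest without placebo mouse 3), -0.29 to 0.38 for Dnajb1, -0.23 to 0.43 for Hsph1, -0.24 to 0.24 for Hsp90ab1 (the highest 3 without placebo mouse 5), -0.38 to 0.38 for Hsp90aa1, -0.34 to 0.36 for Hspa8 and -0.29 to 0.023 for Hspa5. In glutamatergic-like cells they ran from -0.39 to 0.17 for Dnajb1, -0.22 to 0.22 for Hsph1, -0.37 to 0.41 for Hsp90aa1, -0.42 to 0.40 for Hspa8, -0.22 to 0.16 for Hsp90ab1 and -0.32 to 0.0096 for Hspa5.

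For the classes against glutamatergic-like cells, 4688 genes were called in astrocyte-like and 4036 in microglia-like cells with no filter, where more genes were tested, 3296 in astrocyte-like cells against clusters of many UMIs, and 1197 in microglia-like cells against clusters of few. Leaving out 1 mouse gave 1920 to 3947 genes in astrocyte-like and 1558 to 3174 in microglia-like cells, the highest of each without placebo mouse 3, the smallest library. Members called in endothelial cell-like cells were 2 under total UMI scaling, 3 against clusters of few UMIs and 3 to 6 with 1 mouse left out. In oligodendrocyte-like cells they were 2 under DESeq2, total UMI scaling or classes set from each cell's own markers, and 4 against clusters of many or of few UMIs. Against clusters of few UMIs the reversed values were Hspa8 0.56 and Dnaja1 0.59 in astrocyte-like, Hspa8 0.42, Dnaja1 0.73 and Hsbp1 0.32 in endothelial cell-like, Hspa8 0.18 and Hspd1 0.099 in microglia-like, and Hsp90ab1 0.42 and Dnaja1 1.18 in oligodendrocyte-like cells. The uncalled oligodendrocyte-like values also turned, Hspa8 to -0.080 under DESeq2 and relative log scaling, -0.10 with no filter, -0.17 under total scaling, -0.32 by own markers, -0.34 against clusters of many UMIs and -0.0028 without doublets, Hsp90aa1 to -0.0012 under total scaling, -0.17 by own markers and -0.18 against clusters of many UMIs, and Hspa5 to -0.018 under total scaling. With 1 mouse left out Hspa8 ran from -0.083 to 0.21 there. Hspa1b in endothelial cell-like cells was at 0.19 under total scaling and at -0.0046 to 0.64 with 1 mouse left out.

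For the split by mt- share in glutamatergic-like cells, 146, 7 and 2 genes and 2, 0 and 0 members were called within clusters 0, 2 and 3, which hold fewer cells. Within cluster 3 no member was called. The values that turned above 0 there were Hsph1 0.095, Dnaja1 0.083, Hspa5 0.28, Hspa4 0.061, Hspa9 0.011, Dnaja2 0.022, St13 0.21, Cct6a 0.071, Pdia3 0.038, Hsp90b1 0.087, Egr1 0.12 and Jund 0.049, while Hspa8 (-0.20), Hsp90aa1 (-0.035) and Hsp90ab1 (-0.054) stayed below 0. In astrocyte-like cells 3 genes were called with no filter, 2 with mt- UMIs kept in totals, 1 without the shared barcodes and 0 to 2 with 1 mouse left out, none of them a member.

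Depth limited the sparse genes. Dnajb1, Hspa1a and Hspa1b had 148, 51 and 73 UMIs in all, and shares of cells with a UMI moved with thinning in 17 of 36 values. With 3 mice per treatment, the 95% intervals of the best-measured members spanned about 1 on the log2 scale. Whether the barcodes shared by placebo mouse 1 and EPO mouse 4 belong to one mouse was not settled.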
